A study of Homo sapiens with 42 samples.

Results

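In the MDA-MB-231 breast cancer tables of 3′-end reads, some transcript ends are named after a transcript and others only by a genomic position. The genes described here were chosen by their mean reads: those whose 2 most used ends were both named by position, each with a mean of at least 10 over the libraries of a table. They numbered 146 of the 1000 genes with an ordered pair of ends in any table. Of the other genes, 244 had a pair of transcript ends and 629 a transcript end with a position in at least 1 table. The members were 127 of 828 ordered pairs in the table of LM2 and Par cells, 111 of 899 in the HNRNPC knockdown table and 102 of 636 in the T4 table. All 3 tables held 80 of the 146, and 74 of these had the same 2 positions in each. A further 34 were members of exactly 2 tables and 32 of 1 table.

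The minimum of 10 reads chose the members and is not a finding. Just inside it, the less used site had a mean of 10.0 reads for MARCH6 and 10.1 for LGALS8 and WDR41 in the LM2 and Par table. PTCD3 at 10.0 and OTULIN and TMED4 at 10.2 stood just inside in the knockdown table, and BACE1 at 10.0, RSL1D1 at 10.1 and PEX26 at 10.2 in the T4 table. Just outside were PPP2R5E at 9.92, VANGL1 at 9.83 and PURA at 9.67, then DDX46 at 9.92, GNB5 at 9.83 and MPP5 at 9.75, then MPP5 at 9.50 and ABI1 at 9.39. In all, 565, 523 and 598 pairs of positions fell below the minimum in the LM2 and Par, knockdown and T4 tables.

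A pre-mRNA is cut and given its poly(A) tail at a polyadenylation site, and many human genes carry several. When both sites lie in the last exon they are called tandem: use of the distal site gives a longer 3′ untranslated region, and use of the proximal site a shorter one, with the same protein. Sites in upstream introns or exons can shorten the protein instead. HNRNPC is a nuclear protein that coats U-rich stretches of pre-mRNA and is known to affect which polyadenylation sites are used.

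Every library came from MDA-MB-231, an established human breast cancer cell line, sequenced from the 3′ end with the QuantSeq REV kit. The LM2 and Par table holds cytoplasmic and nuclear RNA of LM2 cells, described by the depositors as highly metastatic to the lungs, and of Par cells, described as poorly metastatic. The knockdown table holds the same fractions of poorly metastatic cells with a control (gCTRL) or with HNRNPC knocked down (gHNRNPC). The T4 table holds total RNA of LM2 cells exposed for 6 h to the compound T4 (3 µM, in DMSO) or to the same volume of DMSO. Those cells were harvested at 6 h, or after a change of medium at 24 or 72 h. Each of the 14 groups has 3 libraries, 42 in all. The labels do not tie a group's libraries to different cultures. The p-values then reflect the spread among these libraries alone, and it may be technical.

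Depth, in units of 1e6 reads per library, was 0.798 to 2.3 in the LM2 and Par table, 1.23 to 2.25 in the knockdown table and 0.925 to 1.64 in the T4 table. The members took 1.21 to 4.78% of a library's reads, and a median member had 34.5 to 124 reads per library. Of a library's reads, YIPF4 alone took 0.211 to 3.34% in the LM2 and Par table. Its share was 0.114 to 0.907% in the knockdown table and 0.601 to 2.16% in the T4 table. Of 19 markers of cell types and fractions, VIM (43.2 to 1590 CPM, reads scaled to a library total of 1e6) and CD44 (27.0 to 462 CPM), which MDA-MB-231 cells express, were present in every library. CDH1, ESR1, PGR, ERBB2, PTPRC, CD3E, PECAM1, VWF and DCN were below the expression filter in every table, and EPCAM (0.511 to 20.4 CPM), CD68 (1.93 to 125 CPM) and COL1A1 (0 to 61.3 CPM) were not. Their part in the results was not tested. MALAT1, a nuclear RNA, was at 2.16 to 8.68 CPM in cytoplasmic and 12.6 to 76.2 CPM in nuclear libraries. The other nuclear RNA looked at, NEAT1, was below the filter in every table. RPLP0, looked at as a cytoplasmic RNA, was at 12006 to 16958 CPM in cytoplasm and 2350 to 8520 CPM in nuclei. The mitochondrial MT-CO1 was at 1.08 to 11.2 CPM in cytoplasm and 53.7 to 184 CPM in nuclei. The mitochondrial transcript MT-ND1 was at 656 to 5996 CPM in nuclei against 22.3 to 232 CPM in cytoplasm, so the nuclear libraries held mitochondrial RNA.

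Libraries that stood apart are given first. The nuclear libraries numbered 2 of Par and of LM2 cells differed from the others of their groups at several members. Over all genes, chi-square per gene against libraries 1 and 3 was 65.7 and 48.7 for Par and 55.9 and 36.8 for LM2, against 5.36 and 11.9 between libraries 1 and 3. By the same measure gCTRL cytoplasm library 2 stood apart (9.11 and 9.46 against 1.95), as did the libraries numbered 2 at 72 h with T4 (21 and 26.1 against 2.83) and with DMSO (24.4 and 10.4 against 6.46). Among the largest changes of a comparison (up to 8 per direction), calls that were lost without the nuclear libraries numbered 2 or gCTRL cytoplasm library 2 are given with the value found without them. In the T4 group harvested at 6 h, the median distal share of the members was 41.1% in library 3 against 57.4 and 59.3% in libraries 1 and 2. That library also had VIM at 43.2 CPM against 482 and 398 CPM. Its chi-square per gene was 34.8 and 38.6 against libraries 1 and 2, beside 2.08 between libraries 1 and 2. The part of these libraries in the results was not tested beyond leaving them out.

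One property of the values also bears on several members. The deposited values are estimated counts, and a value that is not whole means that reads were shared out between entries. All reads of the pair were in whole values for 108 of 127, 94 of 111 and 82 of 102 members, and more than 10% were not for 16, 14 and 18. Members of the second kind are named as such beside their results.

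All members were protein-coding genes, and 65, 61 and 57 of them lay on the plus strand in the LM2 and Par, knockdown and T4 tables. Both positions were listed with the same transcript in 111, 97 and 87. The pair held a median of 91.2, 91.9 and 92.1% of its gene's reads, but a further site of the same gene had a mean of at least 10 reads in 42, 43 and 36 members. The distances between the 2 sites had a median of 1757, 1591 and 1834 nt, with quartiles of 905 and 3764.5 nt, 890.5 and 3678.5 nt, and 954 and 4578.5 nt. The shortest distances were 192 nt in CLPB, 401 nt in CACYBP and 403 nt in RPL13. Short distances are rare among the positions as deposited: 24 of 13449 gaps between neighbouring positions of a gene (0.178%) were under 400 nt.

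The word tandem was not borne out for every pair. The distance exceeded the longest last exon that GENCODE 29 lists for the gene in 27, 22 and 25 members, all of them 2000 nt or more apart, so in these both sites cannot lie in 1 listed last exon. Examples are SFPQ (5704 nt against a last exon of 1662 nt), SERBP1 (16897 nt), SMARCC1 (50129 nt), DDX46 (62004 nt) and SH3KBP1 (300717 nt). In the other 100, 89 and 77 the distance fits within a last exon, which does not show that both sites lie in it. YIPF4, a Golgi membrane protein on chromosome 2 (32277910–32316594, plus strand, GENCODE 29 on GRCh38), is the only member whose distance, 32234443 nt, exceeds the gene itself. One of its positions is therefore not in that gene, and its values are kept as the authors listed them. Gene coordinates below come from the same annotation, and only differences between positions were used, because no more than 9.81% of all deposited positions fall inside their host transcript on GRCh38.

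The members with the most reads in all 3 tables were YIPF4, SERBP1, ACTN4, RPL13 and SNRPD3. SERBP1, an mRNA-binding protein, took 87.4, 88.3 and 90.4% of its pair's reads at the distal site in the LM2 and Par, knockdown and T4 tables. ACTN4, an actin crosslinker with sites 429 nt apart, took 86.3, 82.4 and 80.4%. The ribosomal protein gene RPL13 (403 nt) took 23.4, 20.3 and 21.9%, and SNRPD3, a core protein of spliceosomal snRNPs (459 nt), 12.8, 8.15 and 20.6%. Heavily read members thus stood at both ends of the scale at like distances. Over all members the distal site had more reads in 70 of 127, 63 of 111 and 58 of 102, and the median distal share was 54.4, 55.4 and 54.2%.

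**Figure D1:**
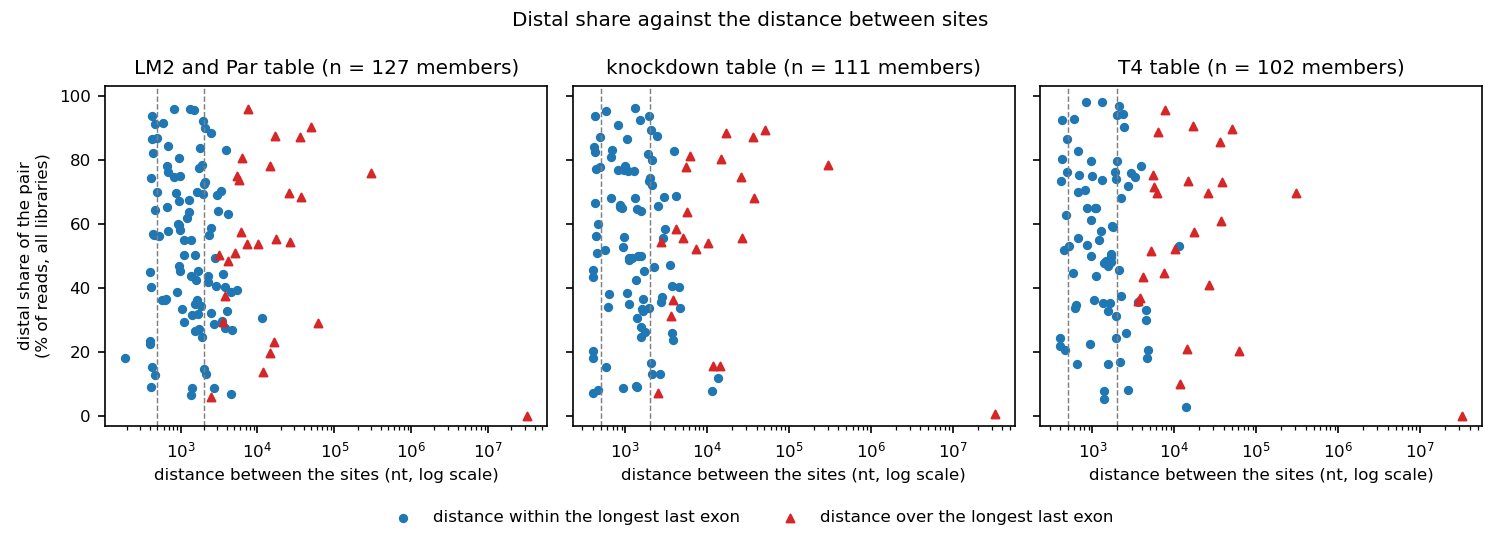
Percent of a pair's reads at the distal site, all libraries of a table together (vertical), against the distance between the 2 sites in nt (log scale, horizontal); 1 point per member, red triangles where the distance exceeds the longest last exon, dashed lines at 500 and 2000 nt. Shares from near 0 to above 90% occur at short and long distances, and the point at the far right is YIPF4.

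The members' distal share had no common order over distance in the 3 tables. Across members, Spearman's correlation between distance and mean distal share lay between -0.11 and 0.01 in the 14 groups. This is a description over members that share libraries. No member had sites under 100 nt apart. From 100 to under 500 nt there were 18, 16 and 10 members, from 500 to under 2000 nt 53, 49 and 47, and from 2000 nt on 56, 46 and 45. In Par cytoplasm the median share per library was 49.3, 58.4 and 44.8% for the shortest distances, 57.7, 55.8 and 54.5% for the middle ones and 48.4, 49.4 and 39.3% for the longest. In gCTRL cytoplasm it was 60.4, 44.8 and 47.1%, 55.0, 58.5 and 51.3%, and 52.4, 49.2 and 47.8%. With DMSO at 24 h it was 69.3, 70.0 and 70.6%, 53.4, 50 and 54.0%, and 58.0, 52.9 and 52.5%. The shortest pairs stood above the others there, but only 10 genes make up that group.

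The median of the longest pairs minus that of the shortest was -0.92 points in the LM2 and Par table (SD 7.21 over 12 libraries), -2.81 in the knockdown table (SD 6.41 over 12) and -12.7 in the T4 table (SD 9.90 over 18). With both sites at a mean of 50 reads or more the sign turned, to 9.78, 28.5 and 34.6 points, where only 4, 3 and 3 short and 12, 8 and 10 long members were left.

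**Figure D2:**
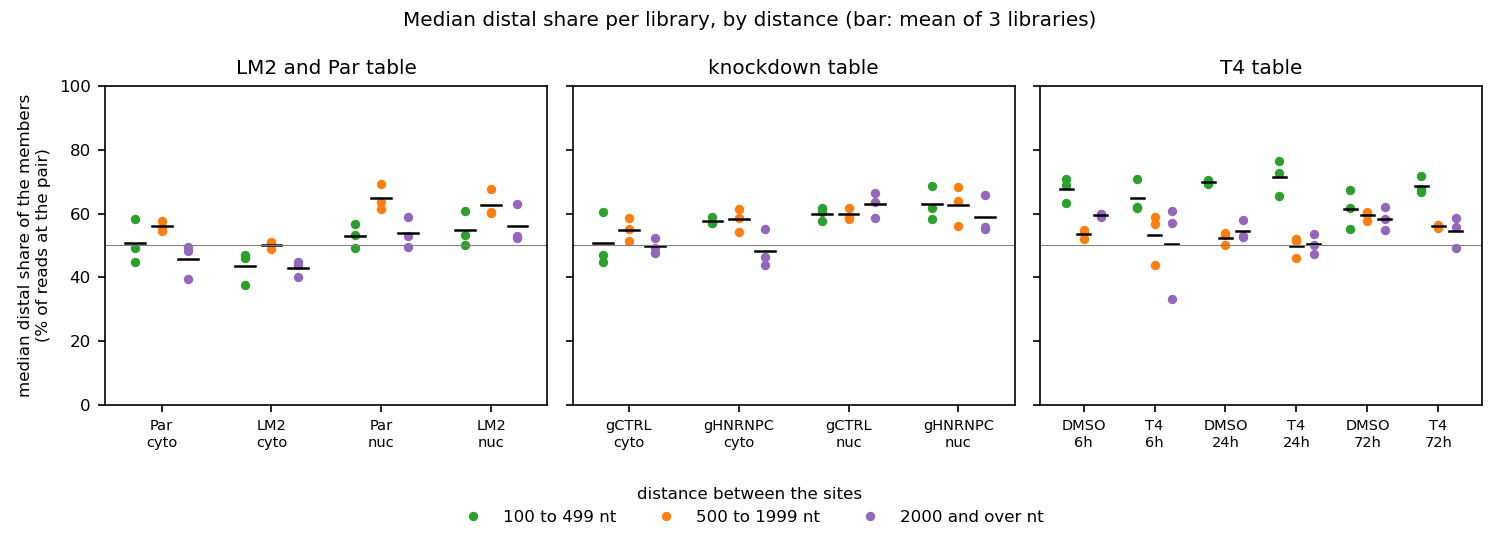
Median distal share in percent over the members of a distance class (vertical), by group (horizontal); each point is 1 library and each bar the mean of 3. The nuclear bars lie above the cytoplasmic ones of the same cells in every class, and the order of the classes differs between tables.

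The comparisons of nuclei with cytoplasm gave the most calls. The members' median distal share was 51.7 ± 2.5% in Par cytoplasm and 58.9 ± 1.6% in Par nuclei (mean ± SD of 3 library medians), and 47.3 ± 1.3% against 58.6 ± 2.0% in LM2 cells. It was 53.1 ± 3.2% against 60.8 ± 1.6% with gCTRL and 53.1 ± 4.1% against 61.7 ± 5.6% with gHNRNPC. Each pair was tested for a change in log2(distal/proximal reads) with edgeR's quasi-likelihood test, with p adjusted by Benjamini-Hochberg over all ordered pairs of the table, and a call is an adjusted p under 0.05. In Par cells 11 members moved toward the distal site in nuclei and 3 toward the proximal one, 14 of 127, beside 13.3% of all pairs (9.78% distal and 3.5% proximal). In LM2 cells it was 39 and 10 of 127 beside 37.3% (27.7 and 9.66%). With gCTRL it was 28 and 8 of 111 beside 31.3% (22.6 and 8.68%), and with gHNRNPC 16 and 7 of 111 beside 14.6% (8.57 and 6.01%). The shares of members called were near the background in the first 3, and the median change of the members was 0.22, 0.63, 0.36 and 0.20 log2 units beside 0.25, 0.48, 0.36 and 0.16 over all pairs. The fractions did not overlap in 34.6, 59.1, 52.3 and 27.9% of the members, beside 35.0, 52.1, 47.5 and 31.1% of all pairs.

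The split by direction depends on whether a shift shared by most pairs is kept in the ratios. When the ratios of each library were centred, a setting chosen after seeing the data, the calls were 10 distal and 7 proximal in Par, 20 and 17 in LM2, 12 and 15 with gCTRL and 10 and 12 with gHNRNPC. Neither direction was far ahead of the other among the members then. No share of all pairs called is given for the centred ratios or for the fits with libraries left out. Those counts thus do not compare the members with other pairs. Centring takes out the level of distal use shared by the pairs of a library. A near-even split thus follows largely from the setting and decides nothing about that shared shift. Uncentred, the mean library median over all pairs was 51.6% in Par cytoplasm and 57.4% in nuclei, and 47.4 and 57.9% in LM2 cells. The values were 47.6 and 55.3% with gCTRL and 54.4 and 58.0% with gHNRNPC. Leaving out Par cytoplasm library 1 or 3 left 2 calls in Par cells and Par nuclear library 3 left 7, and leaving out both nuclear libraries numbered 2 gave 24. Without LM2 cytoplasm library 3 the LM2 count was 31, and without gCTRL cytoplasm library 2 or nuclear library 3 the gCTRL count was 19 or 21. Without gHNRNPC cytoplasm library 1 or 3 the gHNRNPC count was 13 or 12, and without its nuclear library 1 or 2 it was 11. Among the largest changes (up to 8 per direction and cell group), the call was lost without at least 1 single library for GNB5, CFLAR, MTPAP, SH3KBP1, OTULIN, ACTR3, GOSR1, NET1 and HSBP1 in Par cells, and for ZNF346, SMIM14, RBM12 and HSBP1 in LM2 cells. It was so lost for ACTR3, RSL1D1, C1orf21, SMIM14 and NUCKS1 with gCTRL, and for NR2F2, PDZD8, SWAP70, SMIM14 and CACUL1 with gHNRNPC.

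Of 95 members with the same pair in the LM2 and Par and the knockdown tables, 50 were called in at least 1 of the 4 cell groups, none in both directions, and 45 in none. A change toward the distal site was called in at least 3 groups for 12 of them, and toward the proximal site for 3. Of all 726 pairs that were the same in both tables, 366 (50.4%) were called in at least 1 group, beside 52.6% of the members, and 1 in both directions. In at least 3 groups 10.1% were called toward the distal and 3.17% toward the proximal site, beside 12.6 and 3.16% of the members. Par and gCTRL cells share no library: 12 of the 95 were called in Par and 31 in gCTRL, 8 in both, which is 8 of 12 and 8 of 31, all 8 in the same direction. Over all 726 pairs it was 77 of 101 and 77 of 245, again all in the same direction. The shares of the members lay near those of all pairs.

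The 4 members called toward the distal site in the nuclei of all 4 cell groups were NGRN, SFPQ, SH3KBP1 and CFLAR. NGRN encodes neugrin, a mitochondrial protein (chromosome 15, 90265659–90278141, plus strand, sites 4602 nt apart). Its distal share was 8.98, 18.4 and 7.54% in Par cytoplasm and 74.7, 63.7 and 66.3% in Par nuclei. In LM2 cells it was 5.00, 7.51 and 6.80% against 53.3, 43.9 and 43.6%. No cytoplasmic library reached a nuclear one in either cell line.

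With gCTRL, NGRN had 28, 19 and 22 distal and 185, 222 and 255 proximal reads in cytoplasm, against 134, 128 and 177 distal and 72, 58 and 120 proximal reads in nuclei. The shares were 13.1, 7.88 and 7.94% against 65.0, 68.8 and 59.6%, and with gHNRNPC 12.2, 14.4 and 9.72% against 47.9, 67.4 and 59.5%. The proximal site had more reads in all 12 cytoplasmic libraries, and the distal site in 9 of 12 nuclear ones. The change was 4.11 ± 0.43, 3.69 ± 0.42, 4.10 ± 0.36 and 3.36 ± 0.37 log2 units (fit ± SE) in Par, LM2, gCTRL and gHNRNPC cells, with adjusted p of 0.000116, 7.95e-05, 4.12e-08 and 1.57e-06. Of the reads at its proximal site, 92.9% in the LM2 and Par table and 81.8% in the knockdown table were in values that are not whole, and their part in the change was not tested.

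SFPQ, an RNA-binding protein of nuclear paraspeckles (chromosome 1, 35176378–35193148, minus strand), had only whole values. Its distal share was 68.1, 74.2 and 50.2% in Par cytoplasm against 84.5, 83.3 and 88.4% in nuclei, and 24.4, 32.1 and 33.2% against 87.9, 79.9 and 81.3% in LM2 cells. With gCTRL it was 48.4, 34.3 and 46.0% against 79.8, 76.4 and 82.3%. Cytoplasm and nuclei did not overlap in these 3 groups, and with gHNRNPC they did: 30.9, 67.5 and 32.1% against 66.4, 82.6 and 60.9%. The changes were 1.68 ± 0.41, 3.56 ± 0.42, 2.38 ± 0.47 and 1.69 ± 0.50 (adjusted p = 0.0227, 8.69e-05, 0.000944 and 0.0260).

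SH3KBP1, an adaptor of receptor endocytosis (chromosome X, 19533975–19887601, minus strand), has sites 300717 nt apart, so its distal share compares transcripts of very different extent. That share was 69.9, 83.5 and 70.4% in Par cytoplasm against 98.6, 90.6 and 94.3% in nuclei, and 60.0, 50 and 55.3% against 90.9, 100 and 92.7% in LM2 cells. With gCTRL it was 76.2, 59.6 and 70.4% against 86.9, 94.1 and 90.6%, and with gHNRNPC 64.8, 80.0 and 74.7% against 88.5, 88.6 and 92.5%. The fractions did not overlap in any of the 4 groups, and the changes were 2.72 ± 0.71, 3.6 ± 0.64, 2.08 ± 0.48 and 1.67 ± 0.55.

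CFLAR encodes c-FLIP, an inhibitor of caspase-8 activation (chromosome 2, 201116104–201176687, plus strand, 11350 nt). Its distal share was 4.35, 0 and 7.41% in Par cytoplasm against 25, 86.0 and 20.7% in nuclei, and 3.26, 3.41 and 1.05% against 21.1, 65.5 and 36.4% in LM2 cells. The nuclear libraries numbered 2 were the highest in both. With gCTRL it was 3.6, 2.17 and 2.61% against 15.6, 7.95 and 6.06%, and with gHNRNPC 3.94, 3.16 and 4.58% against 11.7, 19.0 and 6.22%. The changes were 4.45 ± 1.27, 4.77 ± 1.21, 1.82 ± 0.55 and 1.64 ± 0.54 (adjusted p = 0.0364, 0.00955, 0.0174 and 0.0435). Without Par nuclear library 2 the Par change was 2.67 (adjusted p = 0.0744), and without both libraries numbered 2 it was 2.66 (adjusted p = 0.0164). At its distal site, 99.1 and 98.1% of the reads in the LM2 and Par and the knockdown tables were not in whole values.

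**Figure D3:**
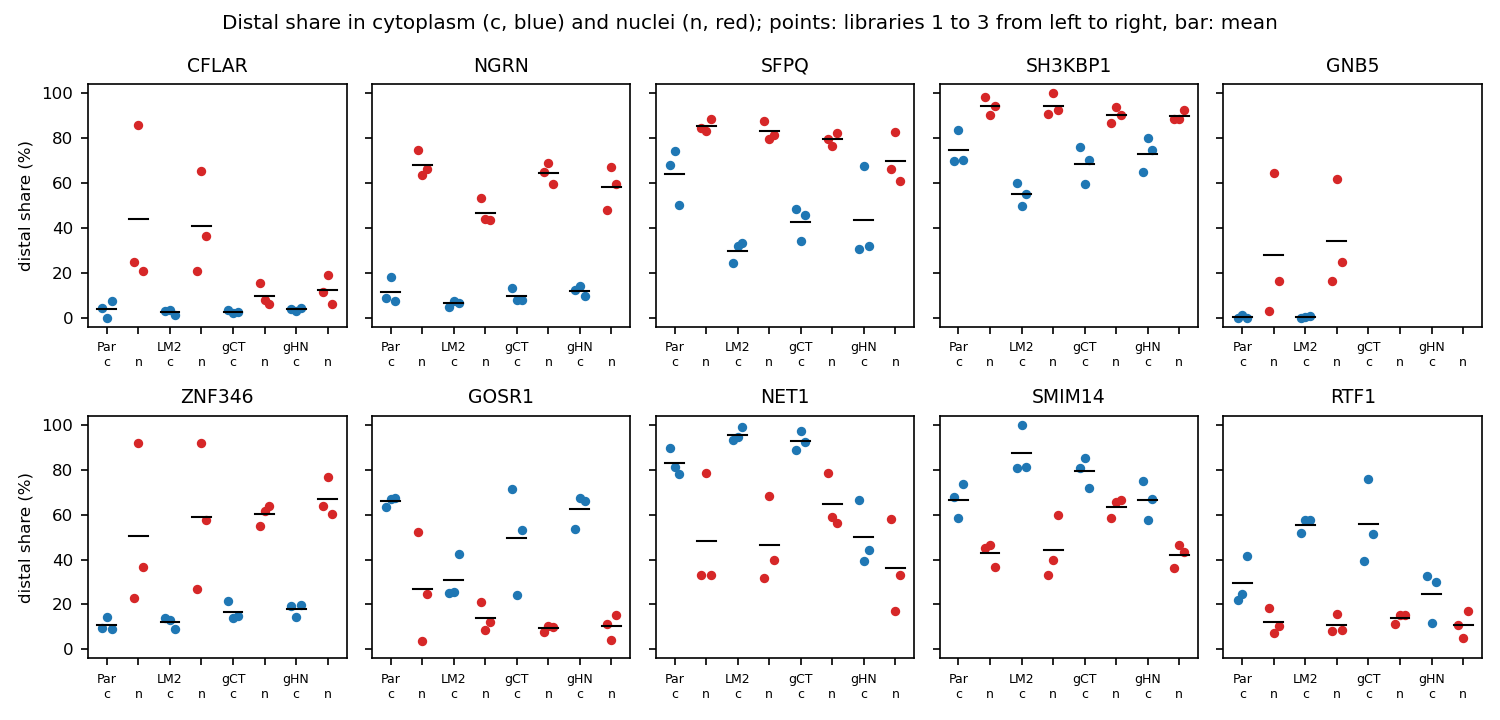
Percent of a pair's reads at the distal site (vertical) in cytoplasm (c, blue) and nuclei (n, red) of Par, LM2, gCTRL (gCT) and gHNRNPC (gHN) cells for 10 members; points are libraries 1 to 3 from left to right and bars their mean. NGRN, SFPQ and SH3KBP1 are higher in nuclei, GOSR1 and RTF1 lower, and the nuclear libraries 2 of Par and LM2 cells stand apart for CFLAR, GNB5 and ZNF346.

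The largest fitted changes in Par and LM2 cells were those of GNB5, a G-protein beta subunit of the regulator of G-protein signalling complex (chromosome 15, 52115105–52191369, minus strand, 4508 nt). Its distal site had 0, 4 and 0 reads in Par cytoplasm and 1, 71 and 13 in Par nuclei, or 2.86, 64.5 and 16.2% of the nuclear pair. In LM2 cells the distal share was 0, 0.485 and 0.924% against 16.2, 62.1 and 25%. The changes were 6.57 ± 1.51 and 6.71 ± 1.38 (adjusted p = 0.0184 and 0.00303), and 5.07 and 5.71 without both nuclear libraries numbered 2, still past the threshold. All its distal reads were in values that are not whole, and with cytoplasmic counts this low the size of the change is poorly fixed. Its distal site also met the minimum mean largely through the nuclear libraries. A nuclear excess was thus in part built into its choice as a member, and its test is no independent support for that excess.

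ZNF346, a zinc-finger protein that binds double-stranded RNA (chromosome 5, 177022696–177081189, plus strand, 1114 nt), was the second largest distal change in both knockdown-table cell groups. Its distal share was 21.4, 14.1 and 14.7% in gCTRL cytoplasm against 55.0, 61.8 and 64.1% in nuclei, and 19.4, 14.5 and 19.5% against 64.0, 76.8 and 60.5% with gHNRNPC. The changes were 2.93 ± 0.36 and 3.21 ± 0.36. In LM2 cells the change was 3.83 ± 1.23 (adjusted p = 0.0274) and, without nuclear library 2, 2.58 (adjusted p = 0.0794). Without both libraries numbered 2 it was 2.67 and passed (adjusted p = 0.000264). In Par cells 3.37 ± 1.29 did not pass (adjusted p = 0.0914). All its distal reads were in values that are not whole.

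CEP41, MTPAP and ACTR3, also called toward the distal site in Par nuclei, had only whole values. CEP41, a centrosomal and ciliary protein, stood at 42.3, 45.1 and 48.9% in Par cytoplasm and 87.5, 82.6 and 94.9% in nuclei (3.26 ± 0.61). MTPAP, the mitochondrial poly(A) polymerase (418 nt), stood at 62.7, 77.8 and 30.0% against 95.7, 88.0 and 97.7% (3.40 ± 1.05). For ACTR3, a subunit of the actin-nucleating Arp2/3 complex (448 nt), the values were 50, 57.7 and 42% against 73.1, 80.0 and 82.9% (1.85 ± 0.43). The 3 genes do not overlap between the fractions of Par cells. With gCTRL, ACTR3 changed by 1.91 (adjusted p = 0.00919), and by 1.47 without gCTRL cytoplasm library 2 (adjusted p = 0.0571).

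ACTN4 changed in LM2 cells, from 46.3, 51.1 and 40.2% in cytoplasm to 93.4, 84.1 and 87.8% in nuclei (3.26 ± 0.53), and with gCTRL, from 73.0, 34.1 and 69.1% to 84.3, 86.9 and 89.8% (2.18 ± 0.51). In Par cells its share was 85.4, 88.9 and 63.6% against 91.0, 85.5 and 88.9% (0.82 ± 0.53, adjusted p = 0.307). In Par, LM2 and gCTRL cells the nuclear values lie between 84.1 and 93.4%, and the cytoplasmic ones range from 34.1 to 88.9%. The gHNRNPC shares are not given here. For ACTN4 the knockdown effect in nuclei minus that in cytoplasm was -1.71 and not past the threshold (edgeR, adjusted p = 0.696). OTULIN, a deubiquitinase of linear ubiquitin chains, was called in Par cells (1.91 ± 0.55), but not without Par nuclear library 2 (1.77, adjusted p = 0.0744) or without both libraries numbered 2 (1.77, adjusted p = 0.0623). ZFP91, a zinc-finger protein, and RSL1D1, a nucleolar protein, were called in LM2 and gCTRL cells, at 1.45 and 1.94 for ZFP91 and 1.61 and 1.89 for RSL1D1, and ZFP91 also with gHNRNPC at 1.11.

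With gHNRNPC the distal calls also held EIF2AK2, the double-stranded-RNA-activated kinase PKR, from 80.3, 68.3 and 79.0% in cytoplasm to 96.5, 96.9 and 96.7% in nuclei (3.17 ± 0.37). NR2F2, a nuclear receptor, had 2.40 ± 0.69, SNRPD3 2.09 ± 0.45 and PDZD8, a protein of the endoplasmic reticulum, 1.79 ± 0.50. METTL2A and METTL2B, near-identical tRNA methyltransferase genes, had 2.32 ± 0.39 and 2.05 ± 0.35. Of the distal reads of EIF2AK2 and SNRPD3, 88.9 and 100% were in values that are not whole. Reads of near-identical copies can be split between them, so the METTL2A and METTL2B values are uncertain.

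Toward the proximal site in nuclei, 3 members were called in at least 3 cell groups: GOSR1, NET1 and SMIM14. GOSR1, a SNARE protein of the Golgi (chromosome 17, 30477362–30527592, plus strand, 1397 nt), had a distal share of 63.3, 67.2 and 67.3% in Par cytoplasm against 52.3, 3.77 and 24.5% in nuclei, where library 2 is the lowest. With gCTRL it was 71.4, 24.4 and 53.2% against 7.89, 10.6 and 10.1%, and with gHNRNPC 53.6, 67.6 and 66.2% against 11.1, 4.30 and 15.2%. The changes were -2.78 ± 0.82, -3.28 ± 0.60 and -3.92 ± 0.58. In LM2 cells -1.69 ± 0.93 did not pass, and without Par nuclear library 2 the Par value was -1.66 (adjusted p = 0.0612), while without both libraries numbered 2 it passed at -1.66 (adjusted p = 0.0360). All reads at its proximal site were in values that are not whole.

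NET1, a guanine nucleotide exchange factor (chromosome 10, 5412551–5458463, plus strand, 441 nt), had whole values only. Its share was 93.3, 94.4 and 99.2% in LM2 cytoplasm against 31.6, 68.4 and 40.0% in nuclei, and 88.6, 97.1 and 92.4% against 78.6, 58.9 and 56.5% with gCTRL. The fractions did not overlap in either. The changes were -2.68 ± 0.77 in Par, -4.72 ± 0.86 in LM2 and -2.86 ± 0.61 with gCTRL. With gHNRNPC it was -0.95 ± 0.70 and not past the threshold (adjusted p = 0.420), with 66.7, 39.6 and 44.3% in cytoplasm against 57.9, 17.2 and 33.3%.

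SMIM14, a small membrane protein, changed by -2.94 in LM2, -1.14 with gCTRL and -1.41 with gHNRNPC. Without LM2 nuclear library 2 its LM2 value was -2.84 (adjusted p = 0.0514), and without gCTRL cytoplasm library 2 its gCTRL value was -0.89 (adjusted p = 0.164). RTF1, a transcription elongation factor that works with the PAF1 complex, stood at 51.8, 57.6 and 57.5% in LM2 cytoplasm and 8.33, 15.6 and 8.47% in nuclei (-3.48 ± 0.49), and with gCTRL at 39.6, 76.0 and 51.3% against 11.4, 15.3 and 15.1% (-2.96 ± 0.58). C1orf21 had 57.7, 52.3 and 55.2% in LM2 cytoplasm against 7.50, 0 and 4.17% in nuclei (-4.56 ± 0.78). SRSF3, a splicing factor of the SR family, had 94.6, 93.8 and 97.4% against 57.8, 78.2 and 81.3% (-2.89 ± 0.54). The fractions of LM2 cells did not overlap for these 3, all of which had only whole values.

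Toward the proximal site, CCT4, a chaperonin subunit, was at -2.07 and RBM12, an RNA-binding protein, at -1.65 in LM2 cells, and HSBP1, a small protein that binds heat-shock factor, at -1.33 in Par and -1.43 in LM2 cells. FLRT2, a cell-surface protein, was at -2.16 with gCTRL, and NUCKS1, a chromatin protein, at -0.83 with gCTRL (-0.85, adjusted p = 0.0826, without gCTRL cytoplasm library 2) and -1.38 with gHNRNPC. SWAP70, a signalling adaptor, at -2.69, MAVS, the mitochondrial antiviral adaptor, at -1.07 and CACUL1 at -0.84 were also called with gHNRNPC. The pair of NUCKS1 was 4029 nt apart in the LM2 and Par table, and 859 nt in the knockdown table, so its values do not compare between them. With the former pair it was called toward the distal site in LM2 cells, at 1.11 (adjusted p = 0.0131).

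By distance, the median nuclear shift of the pairs under 500 nt (18 and 16 members) was near 0 in 3 of 4 cell groups. From 100 to under 500 nt, from 500 to under 2000 nt and from 2000 nt on, the median change was -0.07, 0.20 and 0.26 in Par cells and 0.05, 0.72 and 0.64 in LM2 cells. It was 0.07, 0.17 and 0.56 with gCTRL and 0.27, 0.18 and 0.24 with gHNRNPC. Pairs 2000 nt or more apart were 56 of the 127 members in the first 2 cell groups and 46 of the 111 in the others. They held 7 of the 11 distal and 0 of the 3 proximal calls in Par cells, and 18 of 39 and 2 of 10 in LM2 cells. With gCTRL they held 11 of 28 and 2 of 8, and with gHNRNPC 9 of 16 and 3 of 7. The pairs under 500 nt held 2 distal and 1 proximal calls in Par and 7 and 2 in LM2 cells. With gCTRL these were 4 and 2, and with gHNRNPC 2 and 0. Spearman's correlation between distance and change was 0.17, 0.03, 0.14 and 0.08. Where the distance exceeds the longest last exon the median change was 0.80, 0.90, 0.76 and 0.33, and within it 0.09, 0.50, 0.16 and 0.18, a split made after the data were seen.

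The knockdown table was read first at its target. HNRNPC was at 86.8, 113 and 99.8 CPM in gHNRNPC cytoplasm against 549, 490 and 496 CPM with gCTRL (-2.36 ± 0.19, edgeR adjusted p = 1.58e-08). In nuclei it was at 86.9, 117 and 91.6 CPM against 439, 531 and 632 CPM (-2.44 ± 0.20, adjusted p = 1.20e-08). The groups did not overlap in either fraction. In such bulk RNA, fewer cells with a transcript and less of it per cell cannot be told apart.

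In the cytoplasm 6 members moved to the distal site and 5 to the proximal one after the knockdown, 11 of 111, beside 13.1% of all pairs (10.0% distal and 3.11% proximal). All 899 pairs gave 90 distal and 28 proximal calls. The median change of the members was 0.23 beside 0.37 over all pairs, and the groups did not overlap in 27.9% of the members beside 34.5% of all pairs. With the ratios of each library centred, which takes out a shift shared by the pairs, 1 distal and 8 proximal calls were found among the members. The share of all pairs called in that setting is not given. Leaving out gHNRNPC cytoplasm library 3 left 4 calls, and leaving out gHNRNPC library 2 or gCTRL library 1 or 2 left 7 each. RAD23B, NET1 and MAVS passed without any single library of the compared groups, and the other 8 lost the call without at least 1. Without gCTRL library 2, which stood apart, the call was lost for RTF1 (-1.46, adjusted p = 0.0905), C1orf50 (1.68, adjusted p = 0.0969), MRPL57 (1.34, adjusted p = 0.129), YIPF4 (1.10, adjusted p = 0.115) and EIF2AK2 (-1.10, adjusted p = 0.0969).

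RAD23B, a protein of nucleotide excision repair (chromosome 9, 107283137–107332194, plus strand, 572 nt), moved toward the distal site in both fractions. It had 117, 144 and 151 distal and 207, 312 and 230 proximal reads with gCTRL, and 195, 223 and 306 distal and 102, 87 and 166 proximal reads with gHNRNPC. Its cytoplasmic distal share was thus 65.7, 71.9 and 64.8% against 36.1, 31.6 and 39.6% (1.90 ± 0.32, adjusted p = 0.000526), and the more used site differed between the groups. Its expression, all entries together, differed by -0.15 log2 units (adjusted p = 0.578). In nuclei the share was 66.7, 77.4 and 68.9% against 59.1, 38.5 and 47.1% (1.42 ± 0.39, adjusted p = 0.04).

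NET1 moved the other way and had the largest change. Its reads were 156, 234 and 145 distal and 20, 7 and 12 proximal with gCTRL, and 36, 19 and 31 distal and 18, 29 and 39 proximal with gHNRNPC. The distal share was 66.7, 39.6 and 44.3% against 88.6, 97.1 and 92.4% (-3.75 ± 0.60, adjusted p = 0.000455), with no overlap, and its expression fell by 1.78. In nuclei the change was -1.83 and not past the threshold (adjusted p = 0.156).

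MAVS, which passes on signals from sensors of viral RNA, stood at 39.6, 38.2 and 37.4% against 17.5, 22.1 and 24% (1.22 ± 0.27, adjusted p = 0.00451), while its expression fell by 0.72. NAP1L1, a histone chaperone, stood at 16.5, 18.4 and 18.5% against 7.89, 8.40 and 9.30% (1.21 ± 0.32, adjusted p = 0.0141), and C1orf50 at 72.7, 63.2 and 59.4% against 37.0, 24.4 and 36.6% (1.95 ± 0.55, adjusted p = 0.0227). In these 3 every gHNRNPC library was above every gCTRL library. MRPL57, a mitochondrial ribosomal protein (493 nt), was called with overlapping groups, at 82.4, 76.4 and 85.8% against 77.3, 62.4 and 48.6% (1.37 ± 0.45, adjusted p = 0.0484).

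YIPF4 had 44, 23 and 41 distal and 4396, 3233 and 5263 proximal reads with gHNRNPC, and 50, 66 and 63 distal and 14619, 18465 and 14436 proximal reads with gCTRL. Its distal share rose from 0.341, 0.356 and 0.435% to 0.991, 0.706 and 0.773% (1.14 ± 0.37, adjusted p = 0.0451), beside a fall in expression by 1.97. The reads that differ most are those of the proximal position. Expression sums all entries listed with the gene, and which of the 2 positions lies outside YIPF4 is not known. Neither value can thus be tied to YIPF4 itself.

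Toward the proximal site, C1orf21 stood at 4.76, 20.3 and 0% against 41.4, 54.5 and 35.2% (-2.65 ± 0.67, adjusted p = 0.0119), and its expression fell by 1.57. RTF1 stood at 32.9, 11.7 and 29.9% against 39.6, 76.0 and 51.3% (-2.03 ± 0.54, adjusted p = 0.0145), and its expression rose by 0.91. The groups did not overlap in either. EIF2AK2 had 80.3, 68.3 and 79.0% against 89.3, 90.2 and 85.4% (-1.24 ± 0.35), and TMEM192, a lysosomal membrane protein, 85.7, 87.5 and 84.9% against 95.8, 91.1 and 94.6% (-1.30 ± 0.38). Of the distal reads of these last genes, 88.9 and 90.4% were in values that are not whole.

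**Figure D4:**
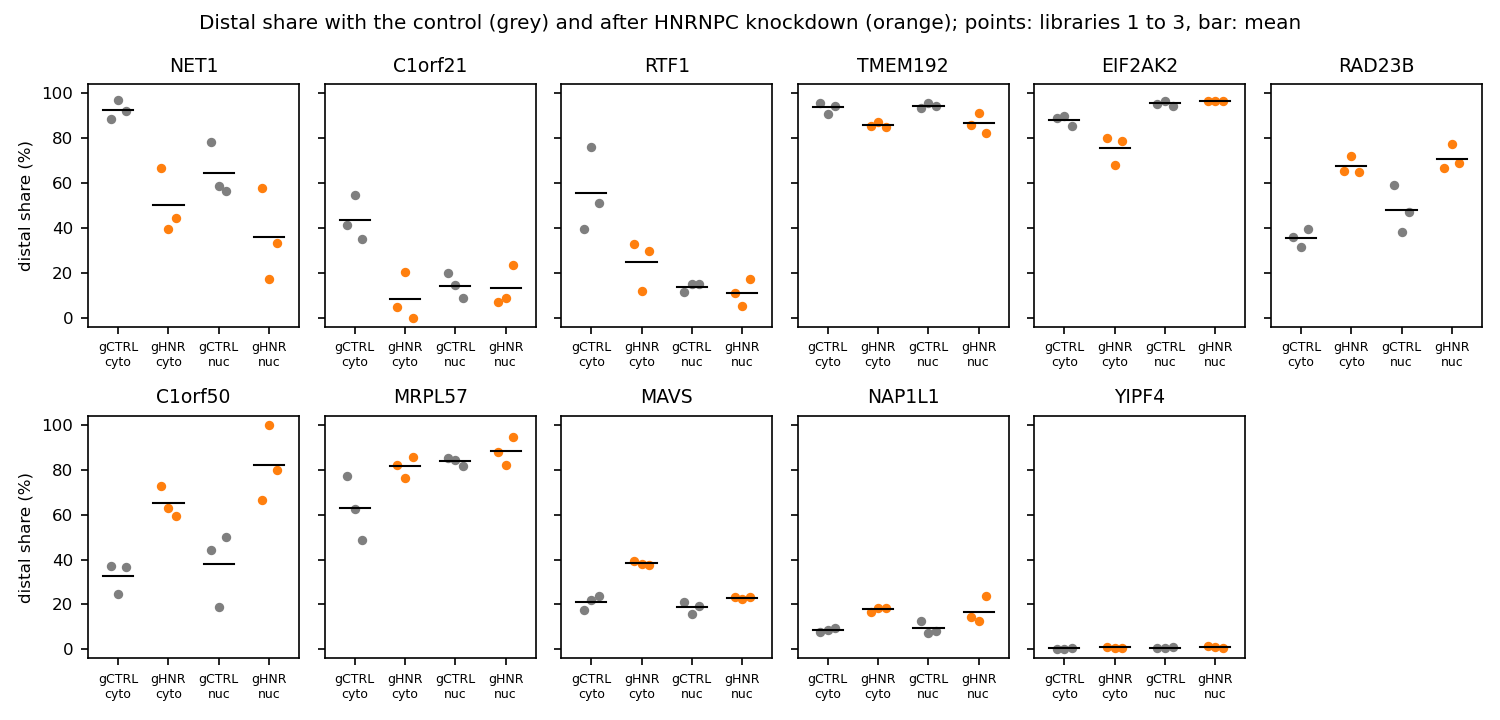
Percent of a pair's reads at the distal site (vertical) with the control (gCTRL, grey) and after HNRNPC knockdown (gHNRNPC, orange), in cytoplasm and nuclei, for the 11 members called in the cytoplasm; points are libraries 1 to 3 and bars their mean. RAD23B, C1orf50, MAVS and NAP1L1 lie above their cytoplasmic controls and NET1 and C1orf21 below them, while YIPF4 stays under 1% in the cytoplasm.

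In nuclei 2 of 111 members were called beside 4.45% of all pairs (2.89% distal and 1.56% proximal), with RAD23B more distal and TMEM192 more proximal after the knockdown. TMEM192 stood at 86.0, 91.5 and 82.4% against 93.3, 95.9 and 94.3% (-1.39 ± 0.35, adjusted p = 0.0223). The closest values that did not pass were those of WBP11, a splicing factor, at 10.3, 8.22 and 17.2% against 4.55, 3.96 and 2.29% (1.91 ± 0.56, adjusted p = 0.0574), FLRT2 (1.43 ± 0.44, adjusted p = 0.0658) and PTCD3, a mitochondrial ribosomal protein (2.32 ± 0.71, adjusted p = 0.0658). Without overlap between the groups were 18.9% of the members and 20.2% of all pairs. Without single libraries the count ranged from 0 to 3. In the test of whether the knockdown changed a pair differently in the 2 fractions, edgeR called 0 of 899 pairs. An unadjusted p under 0.05 was found for 10 members, beside 60 of all pairs. No difference between the fractions was thus shown for any member, NET1 included. By distance class, from the shortest to the longest, the median change in the cytoplasm was 0.27, 0.24 and 0.21.

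After 6 h with T4, 4 members moved to the distal site and 1 to the proximal one, 5 of 102, beside 5.66% of all pairs (1.42% distal and 4.25% proximal). Among all 636 pairs 9 moved to the distal site and 27 to the proximal one, and the median change was -0.34 over all pairs and -0.19 over the members. Without overlap were 24.5% of the members and 25.3% of all pairs. All 4 distal calls fell on members whose distal reads were almost wholly in values that are not whole: of the 18 members with more than 10% of such reads 4 were called (22.2%), and of the 82 with whole values only 1 (1.22%). Over all pairs the same shares were 10 of 113 (8.85%) and 26 of 512 (5.08%). The part of the sharing of reads between entries in these calls was not tested.

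ZNF346 had the largest change. With DMSO it had 91, 133 and 175 distal and 83, 68 and 76 proximal reads, and with T4 154, 125 and 154 distal and 8, 1 and 6 proximal reads. The distal share was 95.1, 99.2 and 96.2% against 52.3, 66.2 and 69.7% (4.10 ± 0.58, adjusted p = 9.82e-05). The proximal reads thus differed most, and its expression differed by 0.36 (adjusted p = 0.522).

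For CFLAR the share was 85.5, 85.1 and 85.8% against 56.5, 56.5 and 58.9% (2.12 ± 0.47, adjusted p = 0.00923), with 25, 26 and 19 proximal reads against 73, 74 and 99. The DMSO shares of CFLAR, from total RNA, lay far above those given earlier for LM2 cytoplasm and within the range of those given for LM2 nuclei. Table and RNA fraction differ together in this comparison, so their parts cannot be told apart. KRI1, a factor of ribosome biogenesis (chromosome 19, 10553078–10566037, minus strand), stood at 92.2, 86.0 and 94.1% against 71.5, 71.6 and 63.4% (2.18 ± 0.42, adjusted p = 0.00268). KLHL42, an adaptor of the CUL3 ubiquitin ligase, stood at 98.9, 99.3 and 99.8% against 97.2, 98.2 and 97.8% (1.84 ± 0.54, adjusted p = 0.0456) on 8, 4 and 1 proximal reads against 16, 11 and 18. T4 and DMSO libraries did not overlap for any of these. Without T4 library 3 KLHL42 no longer passed (1.35, adjusted p = 0.136), and the other 3 did, at 4.19, 2.1 and 1.91 for ZNF346, CFLAR and KRI1.

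The call toward the proximal site was MRPS25, a mitochondrial ribosomal protein with whole values only, at 1.53, 0.971 and 2.70% against 5.69, 6.69 and 5.42% (-1.84 ± 0.43, adjusted p = 0.0116). Without T4 library 3 it was -2.28, and without T4 library 2 it was -1.54 and no longer passed (adjusted p = 0.069). The other members with over 10% of such reads at the distal site alone did not pass, at 1.40 for PHLDA3, 1.16 for SNRPD3, 0.75 for TMEM192, 0.56 for LNPK, 0.36 for GNB5 and -0.21 for KIF1C.

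The members called at 6 h were not called at the later harvests. ZNF346, CFLAR, KRI1, KLHL42 and MRPS25 changed by 0.91, 0.49, 0.32, 1.26 and 1.22 at 24 h and by -0.67, -0.79, -0.71, -0.71 and 0.19 at 72 h, none past the threshold. Tested as a difference between 72 h and 6 h, edgeR called 11 of 636 pairs (1.73%, of which 0.786% toward the distal and 0.943% toward the proximal site) and 3 members, all toward the proximal site: ZNF346 (-4.78 ± 0.76, adjusted p = 0.0011), KRI1 (-2.89 ± 0.56, adjusted p = 0.0043) and CFLAR (-2.91 ± 0.67, adjusted p = 0.02).

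At 24 h, 2 members moved to the distal site and 1 to the proximal one, 3 of 102, beside 2.67% of all pairs (1.42% distal and 1.26% proximal), and the groups did not overlap in 28.4% of the members and 29.9% of all pairs. C12orf49 had 21, 36 and 28 distal and 27, 15 and 41 proximal reads with DMSO, and 117, 108 and 88 distal and 20, 18 and 22 proximal reads with T4. Its distal share was 85.4, 85.7 and 80.0% against 43.8, 70.6 and 40.6% (2.3 ± 0.48, adjusted p = 0.0139), and its expression rose by 1.35 (adjusted p = 0.0063). MRPL57 stood at 90.7, 90.7 and 85.7% against 71.4, 74.0 and 72.6% (1.65 ± 0.44, adjusted p = 0.0484).

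VPS53, a subunit of the GARP tethering complex, stood at 9.23, 8.20 and 12.7% against 42.6, 39.1 and 41.0% (-2.62 ± 0.52, adjusted p = 0.0104). All its proximal reads in this table were in values that are not whole. C12orf49, MRPL57 and VPS53 did not overlap between the groups. Below the threshold were SMC1A, a subunit of cohesin (-1.51 ± 0.44, adjusted p = 0.0582), and RPL13 (-1.25 ± 0.37, adjusted p = 0.0603). Leaving out DMSO library 1 or T4 library 1 or 2 left 0 calls, and DMSO library 3 left 1.

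At 72 h edgeR called 0 of 102 members beside 0.0% of all pairs, and limma and DESeq2 also called 0. An unadjusted edgeR p under 0.05 was found for 4 members, beside 23 of all 636 pairs. The values of smallest p were those of ARIH2, a ubiquitin ligase (-1.11), C12orf49 (1.24), CCAR1 (-1.23), SWAP70 (1.07) and KRI1 (-0.71), all with an adjusted p of 0.994. ARIH2 stood at 49.5, 47.5 and 50% against 75, 64.8 and 63.3%, and C12orf49 at 64.6, 58.5 and 78.9% against 44.4, 43.9 and 51.7%, with no overlap. At 72 h 12.7% of the members did not overlap between the groups, beside 10.8% of all pairs.

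**Figure D5:**
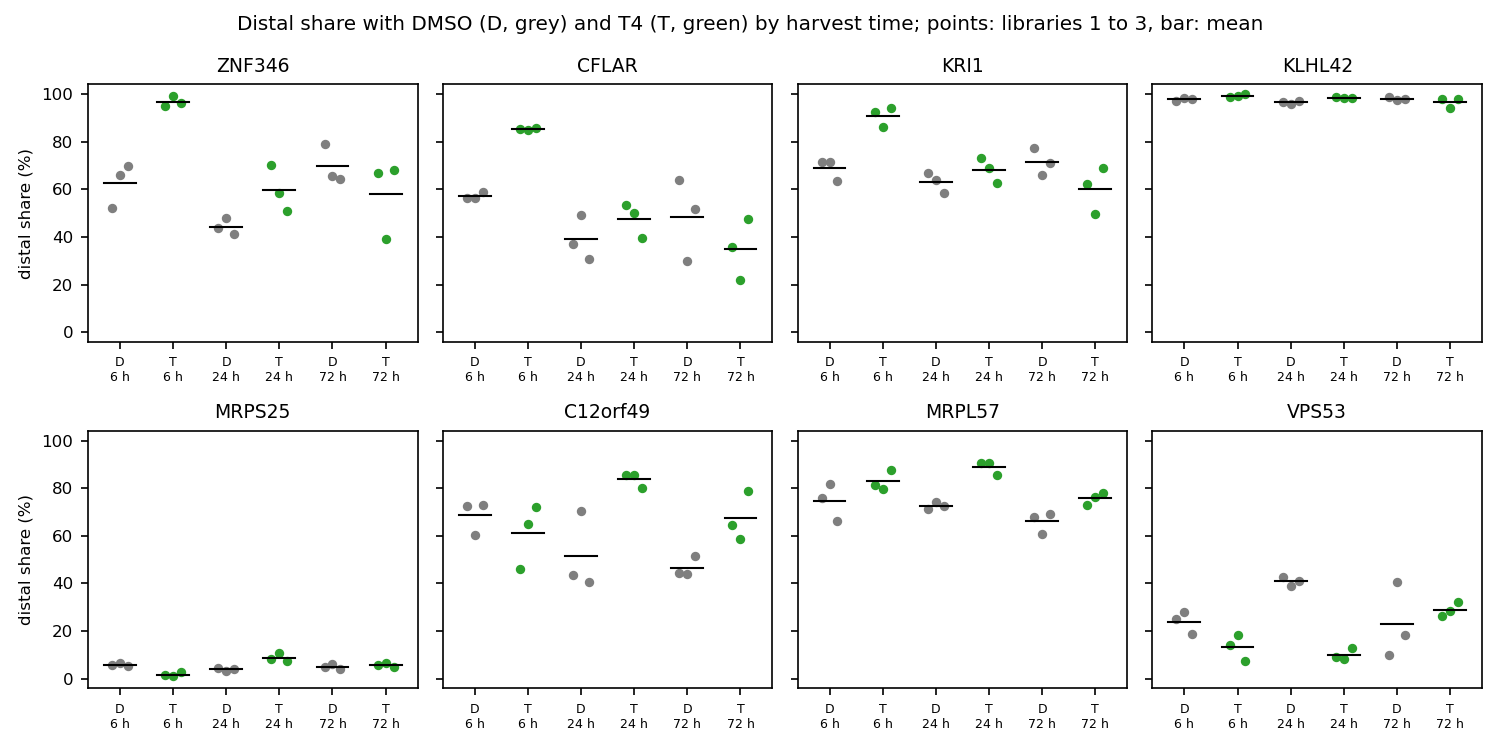
Percent of a pair's reads at the distal site (vertical) with DMSO (D, grey) and T4 (T, green) by harvest time (horizontal) for the 8 members called at 6 or 24 h; points are libraries 1 to 3 and bars their mean. ZNF346, CFLAR and KRI1 separate at 6 h and overlap at 72 h, and C12orf49 and VPS53 separate at 24 h.

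Over the distance classes the T4 group at 6 h was set apart by library 3: for pairs of 2000 nt or more its median share was 33.3%, against 57.1 and 60.9% in libraries 1 and 2 and 60.0, 60.0 and 58.9% with DMSO. At 24 h the same pairs had 47.4, 50.2 and 53.6% with T4 and 58.0, 52.9 and 52.5% with DMSO, and at 72 h 49.1, 58.5 and 55.9% against 58.2, 61.9 and 54.8%. Each of these pairs of groups overlaps. Spearman's correlation between distance and change was -0.04 at 6 h and -0.23 at 24 h.

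Between LM2 and Par cells edgeR called 0 of 127 members in the cytoplasm, beside 0.0% of all pairs. An unadjusted p under 0.05 was found for 34 members, beside 170 of all 828 pairs. The smallest adjusted p was 0.0611. The count rests on the samples in the fit. With the cytoplasmic groups alone, the same test called 34 members, 15 toward the distal and 19 toward the proximal site, and without both nuclear libraries numbered 2 it called 23 (9 and 14). No share of all pairs is given for these 2 settings, so the counts do not compare the members with other pairs. The groups did not overlap in 44.9% of the members, beside 36.8% of all pairs.

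SFPQ stood at 24.4, 32.1 and 33.2% distal in LM2 cytoplasm against 68.1, 74.2 and 50.2% in Par (-2.12 ± 0.41, adjusted p = 0.0611), and ACTN4 at 46.3, 51.1 and 40.2% against 85.4, 88.9 and 63.6% (-2.38 ± 0.54, adjusted p = 0.0611). SMARCE1, a subunit of the SWI/SNF chromatin remodellers, stood at 59.8, 54.4 and 56.7% against 79.1, 76.7 and 73.2% (-1.29 ± 0.32), and BMS1, a GTPase of ribosome biogenesis, at 54.9, 60.1 and 64.1% against 79.1, 81.8 and 74.6% (-1.31 ± 0.35). RTF1 stood the other way, at 51.8, 57.6 and 57.5% against 21.9, 24.7 and 41.6% (1.65 ± 0.44). None of the 5 overlapped and none passed the threshold, the last 3 with an adjusted p of 0.0728. Without both nuclear libraries numbered 2 all 5 passed at like values: -2.13 for SFPQ, -2.38 for ACTN4, -1.29 for SMARCE1, -1.31 for BMS1 and 1.66 for RTF1, with adjusted p of 0.00261, 0.00363, 0.00972, 0.00965 and 0.0114. In nuclei the shares of SFPQ were close, 87.9, 79.9 and 81.3% in LM2 against 84.5, 83.3 and 88.4% in Par cells.

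In nuclei edgeR again called 0 of 127 members beside 0.0% of all pairs, and limma and DESeq2 called 0. An unadjusted edgeR p under 0.05 was found for 7 members, beside 31 of all 828 pairs. The groups did not overlap in 7.09% of the members and 7.49% of all pairs. The values of smallest p were those of MAP7D3, a microtubule-associated protein, at 45.5, 40.6 and 48.6% against 73.1, 62.9 and 80.0% (-1.66 ± 0.45), ELL2, an elongation factor, at 89.3, 87.5 and 84.7% against 69.2, 44.0 and 71.0% (1.95 ± 0.60), and NGRN at 53.3, 43.9 and 43.6% against 74.7, 63.7 and 66.3% (-1.30 ± 0.41), each with an adjusted p of 0.759. They were followed by ZNF592 (1.48) and NAP1L1 (-0.75). The difference of the LM2 effect between the fractions was called for 0 of 828 pairs, with 13 members and 59 of all pairs at an unadjusted p under 0.05.

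The genes that encode the cleavage and polyadenylation machinery were looked at for expression, from a list of 26. After the knockdown 3 of 24 tested were higher and 2 lower in the cytoplasm, beside 23.4% of all genes called: CSTF3, a subunit of cleavage stimulation factor (1.93), PCF11, a factor that couples cleavage to termination (0.91), and PABPN1, the nuclear poly(A)-binding protein (0.48), rose. SSU72, a phosphatase of RNA polymerase II, fell by 1.53, and CPSF6, a subunit of cleavage factor I, fell by 0.84. Without gCTRL cytoplasm library 1 or 2 or gHNRNPC cytoplasm library 2 or 3, 2 of the list were called. In nuclei only CPSF3, the endonuclease, passed, at 0.75, beside 14.1%, and none did without gCTRL nuclear library 2 or 3 or gHNRNPC nuclear library 1.

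Of 22 tested at 6 h with T4, 1 rose and 7 fell, beside 16.0% of all genes called, with a median of -0.49 against -0.11 over all genes. CPSF7 fell by 3.23, CSTF3 by 3.03, PCF11 by 2.74, PAPOLG by 2.11, CSTF2T by 2.01, RBBP6 by 1.48 and CPSF4 by 0.89, and SSU72 rose by 1.75. Without T4 library 3, 7 of the list were called. None was called at 24 h (5.24% of all genes) or 72 h (0.261%). LM2 cells differed from Par cells in CSTF3 alone in the cytoplasm (-1.41, beside 10.9%; 0 without any 1 library of LM2 or Par cytoplasm other than Par library 3, and 2 without that one) and in none in nuclei (2.21%).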

How the data were processed

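The authors quantified reads per transcript end or position and deposited 3 tables of estimated counts, and the submitters' processing notes name Salmon 0.14.1 and hg38. Values were rounded. Whole means within 1e-09 of an integer. Each position took the gene of its listed transcript. The 2 sites of highest mean per gene were ordered by coordinate and strand, and tested if each mean was at least 10.

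Site use was fitted with edgeR 4.0.16 (R 4.3.3; quasi-likelihood) over all groups of a table, with a term per library and a site by group term. Both columns of a library shared 1 library size, so ratios are not centred. Expression was the TMM-scaled sum of a gene's entries. Each SE was derived from the test, as the absolute change divided by the square root of its F statistic. There were 14 comparisons, 7 of them main ones. Biological coefficients of variation were 29.2, 21.0 and 23.2%. The fit was tested on simulated data. No interval or floor is given for single shares, since reads without molecular identifiers are not independent molecules.

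Named members are those past the threshold, up to 8 per direction by size, or the 5 of smallest p where fewer passed, the 5 most read and the extremes of distance. GNB5, KIF1C, LNPK, PHLDA3, SNRPD3 and TMEM192 at 6 h with T4, and later values of members called at 6 h were added after their values were seen, as were values of named members in further groups. Members and lists were chosen with earlier results of these data known. Alternatives were limma 3.58.1 (pseudocounts 1 and 5), DESeq2 1.42.0, other minimums, pairs of unknown order, fewer samples and a replicate block. Centring, leaving out YIPF4, the last-exon split and the restriction to whole values were chosen after seeing the data. Columns not mapped to a sample numbered 0. Some members that the rule names are not reported here.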

Additional observations from a re-analysis of the deposited data

Results flagged for a closer look

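The T4 effect differed between 72 h and 6 h for 3 members in the edgeR test of the difference itself, adjusted over 636 pairs. The difference, 72 h minus 6 h, was -4.78 log2 units for ZNF346, -2.89 for KRI1 and -2.91 for CFLAR (adjusted p = 0.0011, 0.0043 and 0.02). All 3 had been called toward the distal site at 6 h, and none of the 3 was called at 72 h itself. All distal reads of the 3 in the T4 table were in values that are not whole, and no member with whole values only was called. Any part of this in the differences was not tested.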

How the results depend on the processing

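Counts of members called are given for the main setting first. No share of all pairs is given here for the other settings, so these counts do not compare the members with other pairs. With site means of at least 50, which leaves fewer members, 7 in place of 0 were called for LM2 against Par cytoplasm, 4 in place of 11 and 1 in place of 2 for the knockdown in cytoplasm and nuclei, 3 in place of 5 and 0 in place of 3 for T4 at 6 and 24 h, and 7, 15, 14 and 12 in place of 14, 49, 36 and 23 for nuclei against cytoplasm in Par, LM2, gCTRL and gHNRNPC. With no minimum for other genes, where more pairs are adjusted for, the counts were 1 for LM2 against Par cytoplasm, 4 and 0 for the knockdown, 3 for T4 at 6 h, and 8, 20, 15 and 8 for the fractions. With limma and a pseudocount of 1 the knockdown counts were 7 and 4 and the Par fraction count 9, and with a pseudocount of 5 LM2 against Par cytoplasm gave 1. DESeq2 gave 6 for LM2 against Par cytoplasm and 5 for T4 at 24 h. With only the groups compared the counts were 34 for LM2 against Par cytoplasm, 1 for the knockdown in nuclei, 2 and 8 for T4 at 6 and 24 h and 9 for Par fractions. Without both nuclear libraries numbered 2 they were 23 for LM2 against Par cytoplasm and 24 for Par fractions. With centred ratios the knockdown in nuclei gave 1. Restricted to members with whole values only, the knockdown in nuclei gave 1, T4 at 6 h 1, the fractions 9 in Par and 15 with gHNRNPC, and the difference between 72 h and 6 h 0 in place of 3. The cause of the other changes was not tested.

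With the replicate block, LM2 against Par cytoplasm gave 2 calls and the knockdown in nuclei 1, and no other count moved by more than 1.5 times. Of the groups compared, same-numbered libraries deviated together with every correlation over 0.1 for DMSO and T4 at 72 h (0.217, 0.556 and 0.152), where the test called 0 with and without the block. Libraries of unlike number did so too, at 0.318 for DMSO 1 with T4 3 and 0.188 for DMSO 3 with T4 1. For LM2 and Par nuclei the same-numbered values were 0.556, 0.691 and 0.054, so not every pair passed 0.1, and LM2 1 with Par 3 stood at 0.332. The correlations thus do not show that equal numbers mark paired libraries. The numbers were not used to pair samples in the other comparisons.

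Leaving out 1 library at a time gave 0 to 5 calls for LM2 against Par cytoplasm, 4 to 11 and 0 to 3 for the knockdown, 3 to 5 and 0 to 2 for T4 at 6 and 24 h, 2 to 13, 31 to 52, 19 to 32 and 11 to 21 for the fractions and 2 to 4 for the difference between harvests. The counts of 0 in LM2 against Par nuclei, in T4 at 72 h and in the differences between fractions were 0 under every alternative run. The contrast of long against short pairs turned to 9.78, 28.5 and 34.6 points with site means of at least 50, and was -9.62 in the knockdown table with 3 classes of equal number. For 99 results of single named members, 1193 of 1455 alternatives kept direction and side of the threshold, 229 lost and 33 gained the threshold, and 0 reversed. Few reads per pair limit the precision: a median member had 34.5 to 124 reads, depending on the library.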
